A study of Bos taurus with 30 samples.

Results

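The mitochondrial ribosomal proteins build the ribosome inside the mitochondrion, and their transcripts were followed here in the skin of cattle that resist ticks or are susceptible to them. Members were the genes whose symbol, from the annotation of the array's probe sets, starts with MRPL or MRPS and a digit. A probe set is the group of short probes that reads a transcript, and each gene was represented by the probe set with the highest mean signal. There were 67 such genes, read by 84 probe sets, among 9155 genes with a single symbol on the array. By known position 45 belong to the large subunit and 21 to the small subunit. The last one, MRPS36, is today counted as a component of the oxoglutarate dehydrogenase complex in place of a ribosomal protein.

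Every mitochondrial ribosomal protein is encoded in the nucleus, made in the cytosol and imported, whereas the ribosomal RNAs come from the mitochondrial genome. The mitochondrial ribosome translates only the few mRNAs of that genome, which encode core subunits of the respiratory chain and of ATP synthase. Some of its proteins have a bacterial counterpart (conserved members) and others were added in the mitochondrial lineage (mitochondria-specific members). Epidermis, hair follicles and immune cells of the skin all carry mitochondria, so a skin biopsy reads these genes from many cell types.

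The animals were F2 cattle of a cross between Gyr, a zebu breed, and Holstein. Each biopsy was sampled where ticks feed, before infestation (0 h) or 24 h or 48 h after it, and hybridised to 1 Affymetrix array. The 30 arrays came from 13 numbered animals. Before infestation 5 arrays came from tick-resistant and 3 from tick-susceptible animals. At 24 h each phenotype gave 6, and at 48 h each gave 5. The resistant animals are numbered 01 to 06 and the susceptible animals 07 to 13. No age, sex or tick count was used here, and no arrays of uninfested animals at 24 h or 48 h were used, so time after infestation and time after the first biopsy cannot be told apart. In whole skin, fewer cells that carry a transcript and less of it per cell cannot be told apart either.

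The median log2 signal of an array lay between 7.17 and 7.40. Skin was the labelled tissue: 6 of 6 fibroblast markers, 4 of 5 measured basal keratinocyte markers and 3 of 3 measured markers of differentiated keratinocytes were at or above the median of the array in all 30 arrays. Over 200 probe sets that varied most between animals, none of them a member, the resistant 0 h arrays numbered 03, 04 and 05 lay closest to later arrays of animals 04, 05 and 06. Their distances were 0.64, 0.71 and 0.68, against 2.28, 1.42 and 2.46 to later arrays of their own numbers. The other 5 arrays at 0 h lay closest to their own number. All of these animals are resistant, so only results that use the animal number depend on this, and the main ones are given both ways. The animal as a random block and the animal test without single arrays used the labelled numbers only.

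All 67 members were expressed in the sense the array allows. Each passed the filter on low signal (at or above the median of its array in at least 3 arrays), against 76.6% of the genes with a single symbol. At or above the array median in all 30 arrays were 64 of the 67 (95.5%). By the same choice of the brightest probe set this was so for 58.6% of all genes with a single symbol, and since brightness chose the probe sets, these shares are a description. The exceptions were MRPS28 (29 arrays), MRPS25 (28 arrays) and MRPL46 (17 arrays). MRPL46 and MRPS11, at or above the median in 30 arrays, are direct neighbours in the bovine RefSeq annotation and were the one such pair among the members. The family has 78 protein-coding genes in RefSeq, and 11 of them, among them MRPS12 and MRPS18C, had no probe set with their single symbol and were not analysed here.

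The members varied little between arrays. Their SD over the 30 arrays had a median of 0.226 log2 units, against 0.321 for all probe sets that passed the filter and 0.271 for those at or above the median in all 30 arrays. Each member was the brightest probe set of its gene, and the probe sets set beside them were not chosen so. These SDs are therefore a description. The steadiest were MRPS23 and MRPL49 (SD 0.14 each), followed by MRPL3 and MRPL52 (0.17 each) and MRPL35 (0.19). MRPS23 ranged only from 10.88 to 11.44 over all animals, phenotypes and times. The most variable were MRPL9 (0.49), MRPS2 (0.43), MRPS25 (0.41), MRPL12 (0.40) and MRPL19 (0.40). MRPL9 ranged from 10.31 to 12.27.

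**Figure D1:**
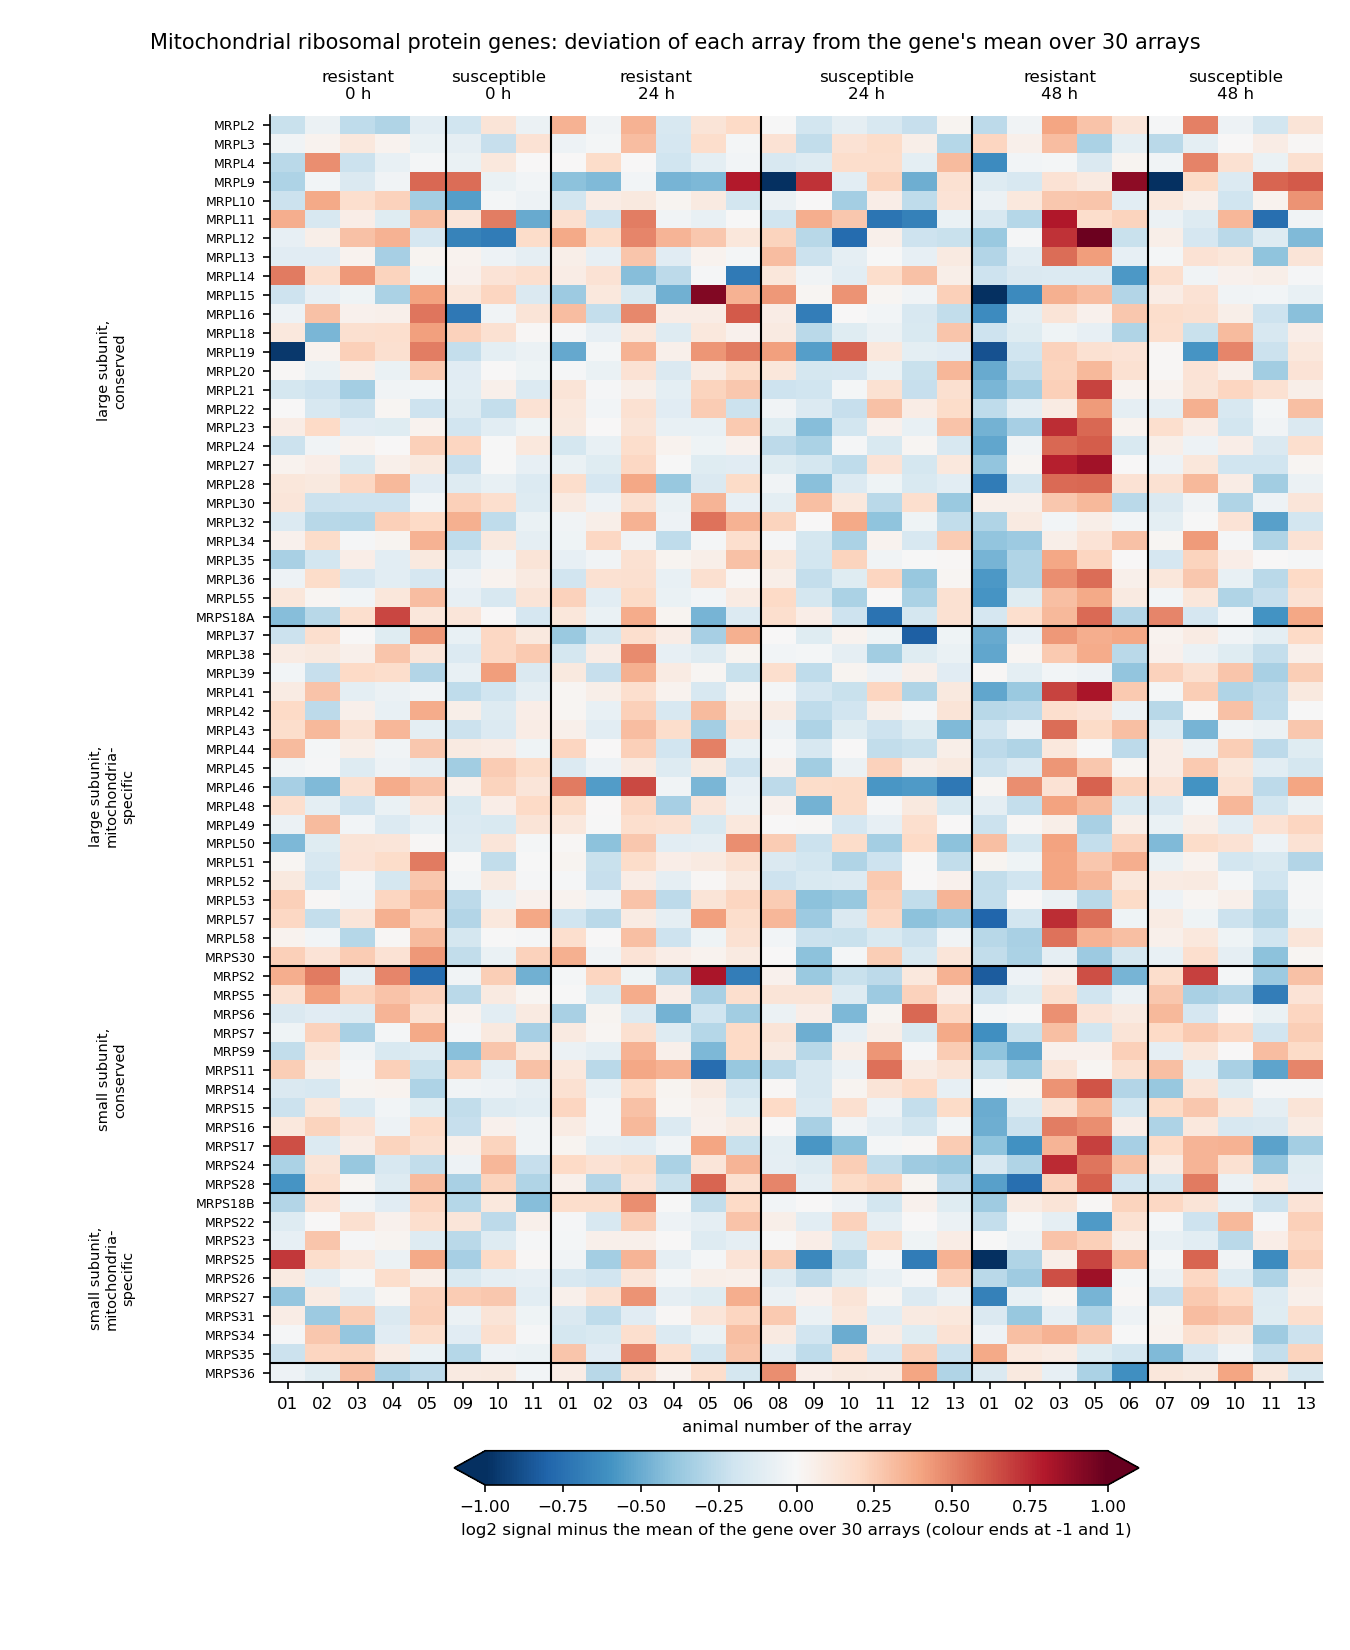
Heat map of the 67 members (lines, grouped by subunit and origin, MRPS36 last) in the 30 arrays (columns, grouped by phenotype and time and labelled with the animal number). The colour is the log2 signal minus the mean of the gene over 30 arrays. Among the resistant 48 h arrays, that of animal 01 is mostly blue, with 8 of 67 members above their own mean, and those of animals 03 and 05 are mostly red, with 57 and 50.

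No member passed the test between resistant and susceptible skin, between times or between responses. With limma and Benjamini-Hochberg adjustment over the 13809 probe sets kept, 0 of 67 members had an adjusted p under 0.05 in any of the 11 comparisons. The background was as low: the share of all probe sets called was 0.0145% for resistant against susceptible skin at 48 h (2 probe sets) and 0.0% in each of the other 10 comparisons. Of the 737 member tests, 22 had an unadjusted p under 0.05, in 14 different genes. The largest difference was 0.50 log2 units, or 1.41-fold, and the smallest adjusted p was 0.274. Values marked ± are differences of log2 group means with their SE. The comparisons share arrays and animals, so their results are not independent of each other.

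Before infestation the members' differences between resistant and susceptible skin lay on both sides of 0. The median difference (resistant minus susceptible) was 0.062 over the members and −0.012 over all probe sets, and 40 of 67 members were higher in resistant skin. None had an unadjusted p under 0.05, against 4.51% of all probe sets, while 3 did without the susceptible 0 h array of animal 11 and 2 without the resistant array numbered 05. Without the resistant array numbered 05 the median was 0.002, with 34 of 67 higher.

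The smallest p at 0 h was that of MRPL12, the protein of the ribosome's flexible stalk, which also binds the mitochondrial RNA polymerase. Its signals in the resistant arrays of animals 01 to 05 were 8.52, 8.66, 8.89, 8.95 and 8.43. In the susceptible arrays of animals 09, 10 and 11 they were 7.93, 7.90 and 8.78. The groups overlapped, because animal 11 lay among the resistant animals. The difference was 0.49 ± 0.25 (SE), with an adjusted p of 1.0 (limma). MRPS30 of the large subunit followed at 0.27 ± 0.14, and on the lower side MRPL30 stood at −0.20 ± 0.16 and MRPS24 at −0.21 ± 0.21.

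At 24 h more members were higher in resistant than in susceptible skin, each by a small amount. The median difference was 0.078 over the members and −0.002 over all probe sets, with 55 of 67 members higher against 49.6% of all probe sets. Higher were 40 of 45 large-subunit members (median 0.095) and 15 of 21 small-subunit members (median 0.035). The members are read in the same arrays, so these are not counts of independent observations. The members' mean signal relative to each gene's own mean ran from −0.08 to 0.21 in resistant arrays. In susceptible arrays it ran from −0.17 to 0.03, so the groups overlapped. An unadjusted p under 0.05 was found for 5 members (7.46%), 3 higher and 2 lower, against 4.4% of all probe sets. It was found for 1 member without the resistant array of animal 06, for 2 without that of animal 03, and for 3 without the resistant array of animal 01 or the susceptible array of animal 11 or 12. The smallest adjusted p was 0.978 (limma). Leaving out single arrays kept the median between 0.049 and 0.122 and the number of higher members between 45 and 56. The count was 45 without the susceptible array of animal 09 and 46 without the resistant array of animal 03.

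MRPL12 led at 24 h too. Resistant arrays ran from 8.71 to 9.09 with a median of 8.90, and susceptible arrays from 7.83 to 8.82 with a median of 8.39. Only the highest susceptible array, of animal 08, reached into the resistant range. The difference was 0.50 ± 0.20 (adjusted p = 0.978, limma). At 48 h it was 0.41 ± 0.21 (adjusted p = 0.513), with resistant arrays of 8.23, 8.59, 9.32, 9.58 and 8.38 around susceptible arrays of 8.16 to 8.66.

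MRPL16, a large-subunit protein near the peptidyl transferase centre, was 0.39 ± 0.17 higher in resistant skin at 24 h. Resistant arrays ran from 9.50 to 10.35 and susceptible arrays from 9.05 to 9.81, so the groups overlapped. MRPS6, a conserved small-subunit protein, had the opposite sign, −0.31 ± 0.13, with 9.68 to 10.18 in resistant and 9.71 to 10.73 in susceptible arrays. MRPL14, which sits at the face where the subunits join, was −0.29 ± 0.13. The adjusted p was 0.978 for each of these genes (limma).

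At 48 h the members split almost evenly. The median difference was 0.042 over the members and −0.042 over all probe sets, and 36 of 67 members were higher in resistant skin (53.7%, against 42.9% of all probe sets). With an unadjusted p under 0.05 there were 4 members (5.97%), 1 higher and 3 lower, against a background of 10.1% of all probe sets. Single arrays moved this count to 8 without the resistant array of animal 01 (6 higher, 2 lower) or 06 (4 higher, 4 lower), to 7 without animal 03 (1 higher, 6 lower) and to 2 without the susceptible array of animal 10. Large-subunit members had a median of 0.051 and small-subunit members of −0.026.

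MRPL51, a mitochondria-specific protein of the large subunit, had the smallest p at 48 h. The resistant arrays of animals 01, 02, 03, 05 and 06 read 10.54, 10.47, 10.91, 10.78 and 10.88. The susceptible arrays of animals 07, 09, 10, 11 and 13 read 10.45, 10.55, 10.33, 10.36 and 10.22. The groups overlapped only through animals 01, 02 and 09, and the 3 highest arrays were resistant. The difference was 0.33 ± 0.11 (adjusted p = 0.328, limma), and over the alternatives it stayed between 0.29 and 0.40. MRPL51 was also higher in resistant skin at 24 h by 0.23 ± 0.10 and at 0 h by 0.22 ± 0.13, with adjusted p of 0.978 and 1.0.

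MRPS31, a mitochondria-specific protein of the small subunit, had the smallest p among the lower members at 48 h. Its resistant signals were 8.84, 8.60, 8.90, 8.67 and 8.93, and its susceptible signals 9.01, 9.29, 9.25, 8.86 and 9.15. The susceptible array of animal 11 was the one that fell into the resistant range. The difference was −0.32 ± 0.12 (adjusted p = 0.379, limma). At 0 h it was 0.00 ± 0.14 and at 24 h −0.10 ± 0.11.

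MRPS36 was −0.32 ± 0.15 at 48 h (adjusted p = 0.477, limma), with resistant arrays between 8.84 and 9.55 and susceptible arrays between 9.28 and 9.85. MRPL4, chosen after its values were seen, was −0.30 ± 0.14 (adjusted p = 0.483). MRPL27, whose bacterial counterpart reaches into the peptidyl transferase centre, was 0.31 ± 0.16 higher in resistant skin (adjusted p = 0.508, limma). Its resistant signals ran from 10.83 in animal 01 to 12.06 in animal 05 with a median of 11.24, and its susceptible signals from 11.02 to 11.34. The resistant arrays of animals 03 and 05 lay above all other arrays of that time and that of animal 01 below all others. Without animal 05 the MRPL27 difference was 0.16, and without animal 01 it was 0.47.

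That pattern held for much of the family. The mean deviation of an array, which is the mean over the 67 members of the log2 signal minus the gene's own mean, was −0.32 in the resistant 48 h array of animal 01. It was −0.15 in animal 02, 0.29 in animal 03, 0.23 in animal 05 and 0.01 in animal 06. The 25 arrays of the other groups lay between −0.18 and 0.21. The resistant 48 h group therefore held both the lowest and the highest array of the study. In the array of animal 01 8 of 67 members were above their own mean, and in that of animal 03 57 of 67 were. The pooled SD within groups was 0.131.

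**Figure D2:**
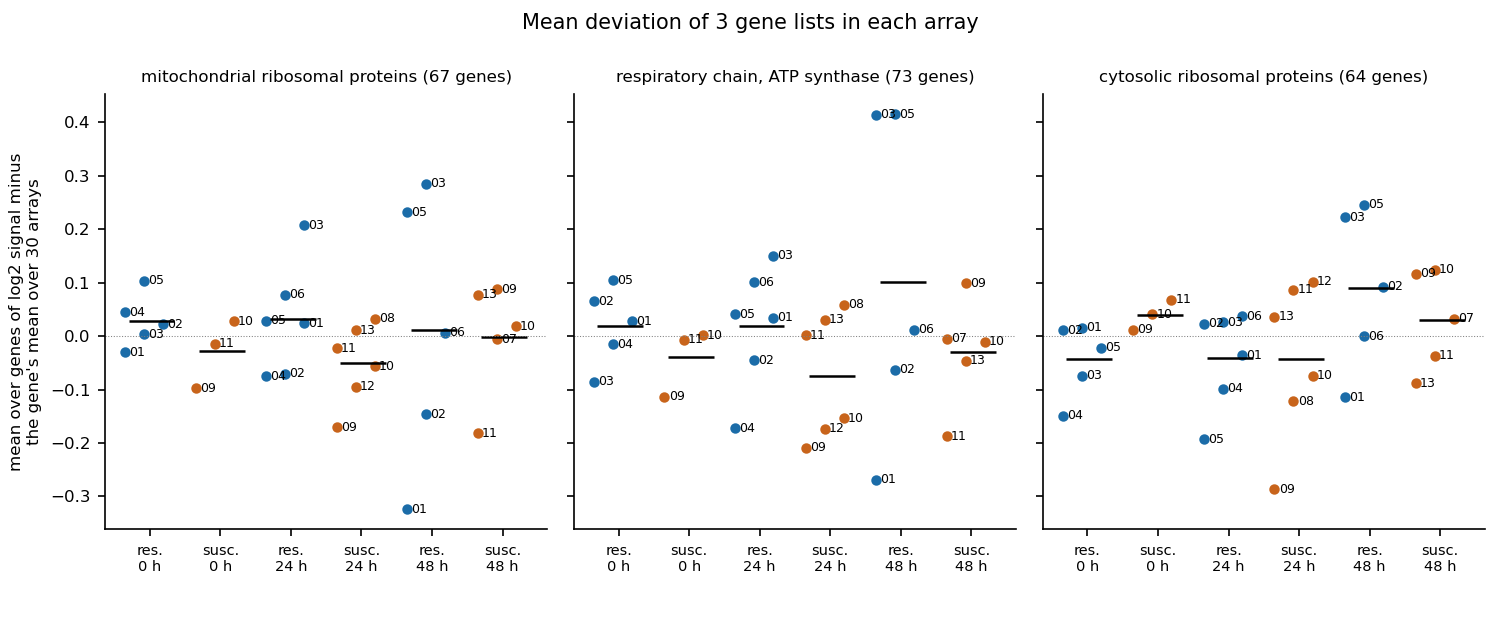
Mean deviation of each array for the mitochondrial ribosomal proteins, the respiratory chain and ATP synthase list, and the cytosolic ribosomal proteins. Each point is 1 array labelled with its animal number (blue resistant, orange susceptible) and each bar is the group mean. For the mitochondrial ribosomal proteins the resistant 48 h arrays run from −0.32 (animal 01) to 0.29 (animal 03).

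Other lists were read in the same arrays. For 73 genes of the respiratory chain and ATP synthase the deviations of animals 01, 02, 03, 05 and 06 at 48 h were −0.27, −0.06, 0.41, 0.42 and 0.01. For 64 cytosolic ribosomal proteins they were −0.11, 0.09, 0.22, 0.25 and 0.00. Markers of basal keratinocytes, the dividing layer of the epidermis, deviated by −2.19 in the array of animal 01 (mean over 5 of 7 markers that passed the filter), while the other 29 arrays lay between −1.14 and 0.97. Differentiated keratinocyte markers deviated there by −1.39 (3 of 10 markers), against −1.05 to 1.41 elsewhere. Sebaceous gland markers (5 of 7) were also lowest there (−1.28), and T cell (6 of 6) and mast cell markers (3 of 5) were highest (0.82 and 1.55). Its hair follicle, fibroblast, endothelial, muscle, adipocyte, neutrophil and melanocyte lists lay within the range of the other arrays. In animals 02, 03, 05 and 06 at 48 h the basal keratinocyte list deviated by −0.41, 0.22, 0.02 and 0.40. The susceptible 48 h arrays ran from −0.54 to 0.97 for the basal keratinocyte list. At 24 h it ran from −0.12 to 0.39 (median 0.35) in resistant and from −1.14 to 0.42 (median −0.37) in susceptible arrays. There its lowest values were in the susceptible arrays of animals 09, 10 and 12 (−0.86, −0.84 and −1.14). These arrays also had their group's lowest mean deviations of the members (−0.17, −0.06 and −0.09). The resistant arrays of animals 02 and 04 had low mean deviations too (−0.07 and −0.08), with basal keratinocyte values of 0.34 and 0.36. Macrophage markers (8 of 9) ran from 0.61 to 1.44 in the resistant 48 h arrays and from −1.77 to 0.44 in the arrays of the other groups. The part that cell composition plays in the members' differences was not tested.

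Signals of the 3' and 5' probe sets of the actin control, a sign of RNA integrity, differed by 4.86, 4.40, 4.75, 1.16 and 4.05 in the same 5 arrays. Over all 30 arrays this difference ran from 1.04 to 5.76. For the GAPDH control the same arrays read 0.51, 0.33, 0.57, 1.0 and 0.58, with 0.19 to 1.6 over all 30 arrays. The controls ordered these arrays differently, with animal 05 lowest by actin and highest by GAPDH. The part of RNA integrity in the members' differences was not tested. Single arrays decided the direction of the members' median at 48 h. Without animal 01 the median difference between phenotypes was 0.116, with 49 of 67 members higher. It was −0.044 (25 higher) without animal 03, −0.020 (28 higher) without animal 05 and −0.038 (29 higher) without the susceptible animal 11.

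**Figure D3:**
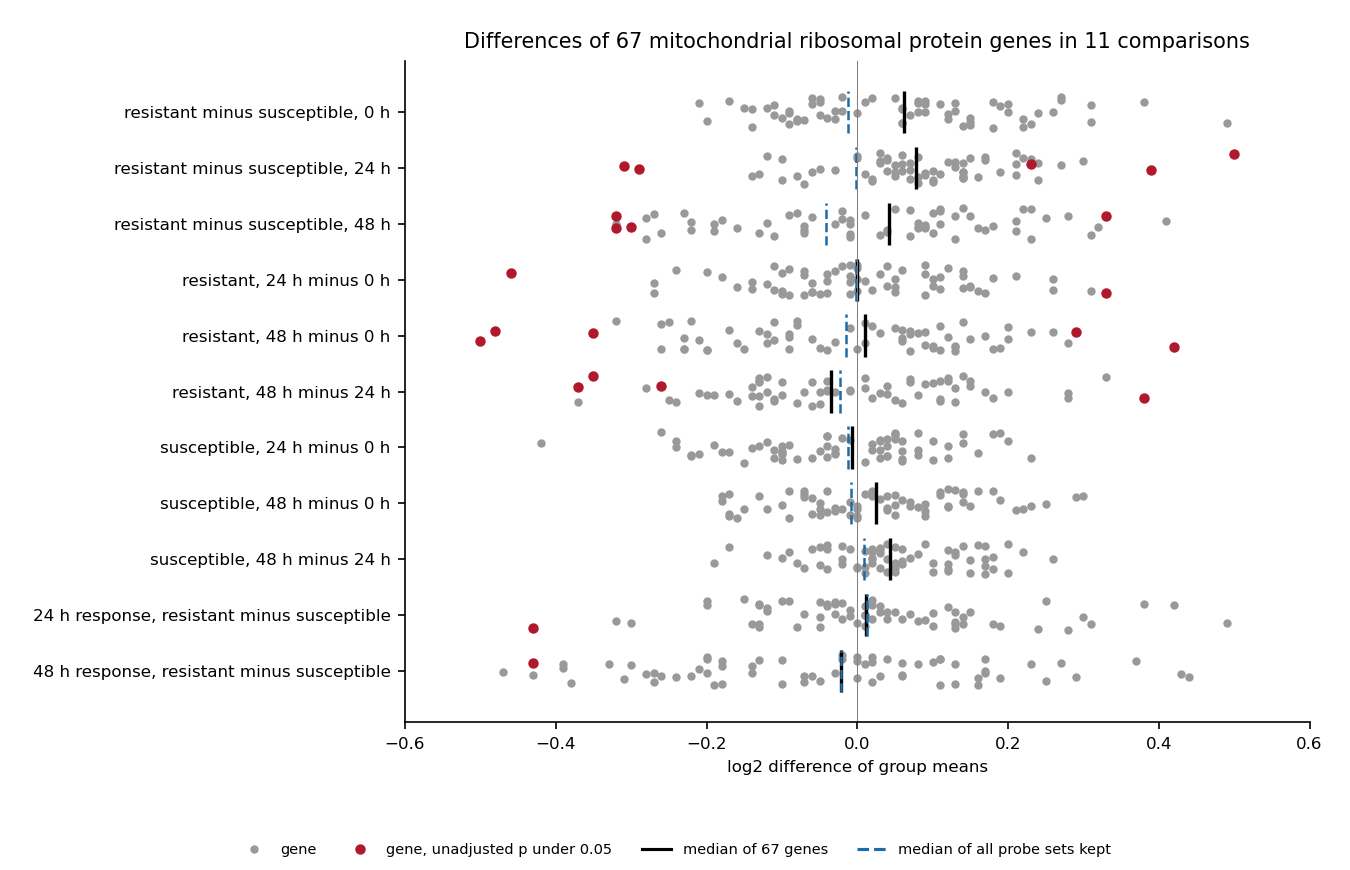
Log2 differences of the 67 members in the 11 comparisons. Each point is a gene, red where the unadjusted p was under 0.05. The black line is the median of the members and the blue dashed line that of all probe sets kept. The members' medians lie between −0.035 and 0.078, and no comparison has a gene beyond 0.50 in either direction.

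In resistant skin the members' median differences from 0 h were close to 0. At 24 h the median difference from 0 h was −0.00 over members and −0.001 over all probe sets, with 31 of 67 members higher. With an unadjusted p under 0.05 there were 2 members, 1 higher and 1 lower (2.99%, against 4.72% of all probe sets). At 48 h the median difference from 0 h was 0.010 (all probe sets −0.015), with 35 of 67 higher and 5 members at an unadjusted p under 0.05, 2 higher and 3 lower (7.46%, against 11%). That count was 8 without the 48 h array of animal 01 (6 higher, 2 lower) and 3 without the 0 h array of animal 01, and without the 48 h array of animal 03 or 05 it was 4, each of them lower. From 24 h to 48 h the median was −0.035 (all probe sets −0.023), with 30 of 67 higher and 4 such members, 1 higher and 3 lower (5.97%, against 9.65%). Single arrays turned the direction of these medians. Without the 48 h array of animal 01 the medians against 0 h and 24 h were 0.095 and 0.058, with 42 of 67 members higher in both. Against 0 h the median was −0.062, −0.043 and −0.008 without the 48 h arrays of animals 03, 05 and 06. It was −0.036, −0.002 and −0.005 without the 0 h arrays numbered 01, 02 and 03. At 24 h against 0 h it lay between −0.031 and 0.035 over the alternatives.

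MRPS30, which despite its name is built into the large subunit, had the smallest p of all member tests. Its signals in resistant skin at 0 h were 9.33, 9.23, 9.35, 9.24 and 9.53 for animals 01 to 05. At 24 h they ran from 9.06 to 9.45 with a median of 9.17. At 48 h they were 8.85, 8.78, 9.0, 8.73 and 8.92 for animals 01, 02, 03, 05 and 06. All 48 h arrays lay below all 0 h and all 24 h arrays of resistant skin. The difference between 48 h and 0 h was −0.48 ± 0.12 (adjusted p = 0.274, limma), and that between 48 h and 24 h was −0.35 ± 0.12 (adjusted p = 0.378).

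The animal numbers gave 4 resistant pairs for MRPS30 at 0 h and 48 h, and the later array was lower in 4 of 4, with differences from −0.80 to −0.35. With the 3 uncertain numbers moved to the animals they lay closest to, it was lower in 4 of 4, with differences from −0.61 to −0.45. All 48 h arrays lay below all 0 h arrays, so any pairing gives these counts and they add no support. When the animal was fitted as a fixed term, MRPS30 differed by −0.50 (adjusted p = 0.102), and with the 3 numbers moved −0.50 (adjusted p = 0.0835). In susceptible skin MRPS30 read 8.85, 9.03 and 9.32 at 0 h and 9.02, 9.26, 9.0, 8.68 and 9.11 at 48 h, and these groups overlapped. The difference of the 48 h responses (resistant minus susceptible) was −0.43 ± 0.19 (adjusted p = 1.0, limma), so a difference between the phenotypes in this response did not pass the test.

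MRPL14 had its lower signals already at 24 h. Resistant arrays read 9.12, 8.77, 9.04, 8.83 and 8.56 at 0 h, ran from 7.90 to 8.75 with a median of 8.46 at 24 h, and read 8.40, 8.46, 8.47, 8.47 and 8.03 at 48 h. All 48 h arrays lay below all 0 h arrays, whereas the 24 h arrays overlapped with both. The difference from 0 h was −0.46 ± 0.13 at 24 h (adjusted p = 0.553) and −0.50 ± 0.14 at 48 h (adjusted p = 0.274, limma). Its lowest arrays were those of animal 06 at 24 h and 48 h, and the lowest at 0 h was the one numbered 05 that lay closest to animal 06. Fitted with animals as fixed terms and the 3 numbers moved, the 48 h difference was −0.47 (adjusted p = 0.0693), and with the labelled numbers −0.41 (adjusted p = 0.125).

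At 48 h the susceptible arrays of MRPL14 read 8.77, 8.57, 8.65, 8.66 and 8.59, all above the resistant arrays of that time. The difference between phenotypes was −0.28 ± 0.14 (adjusted p = 0.501, limma). A second probe set of MRPL14, at or above the array median in only 4 arrays, gave −0.05 ± 0.19 for 48 h against 0 h in resistant skin. With the mean of both probe sets the difference was −0.27 (adjusted p = 0.441). The weak signal of the second probe set limits what this comparison can show.

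MRPS24 and MRPL2 had the opposite sign. MRPS24, a small-subunit protein at the entry of the mRNA channel, read 8.87, 9.32, 8.81, 9.03 and 8.94 at 0 h and 9.03, 8.89, 9.93, 9.72 and 9.49 at 48 h in resistant skin. The arrays of animals 03, 05 and 06 lay above all 0 h arrays and those of animals 01 and 02 among them. The difference was 0.42 ± 0.18 (adjusted p = 0.391, limma). MRPL2, a core protein beside the peptidyl transferase centre, was 0.33 ± 0.13 higher at 24 h than at 0 h (adjusted p = 0.993) and 0.29 ± 0.13 higher at 48 h (adjusted p = 0.417). Its 24 h array was the higher one in 5 of 5 resistant pairs, with differences from 0.03 to 0.60 (0.03 to 0.57 with the 3 numbers moved). MRPL2 was named for this same difference, so the count of pairs is no separate support. At 48 h the later array was higher in 3 of 4 pairs, with differences from −0.04 to 0.65 (−0.04 to 0.59 with the numbers moved). MRPL21, a large-subunit protein, was 0.26 ± 0.14 higher at 24 h than at 0 h and MRPS6 −0.27 ± 0.14, both with an adjusted p of 1.0 (limma).

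MRPS5, which lines the same mRNA channel as MRPS24, was −0.35 ± 0.15 at 48 h against 0 h (adjusted p = 0.402, limma), with 9.24, 9.50, 9.31, 9.38 and 9.32 before and 8.88, 8.97, 9.25, 8.89 and 9.03 after. Only the 48 h array of animal 03 reached the range of the 0 h arrays. Between 24 h and 48 h, MRPS6 was 0.38 ± 0.14 higher and MRPS27, a helical-repeat protein of the small subunit, was −0.37 ± 0.14, with adjusted p of 0.436 and 0.446 (limma). MRPL27 was 0.28 ± 0.15 higher (adjusted p = 0.54). MRPL44, chosen after its values were seen, was −0.26 ± 0.12 (adjusted p = 0.498).

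**Figure D4:**
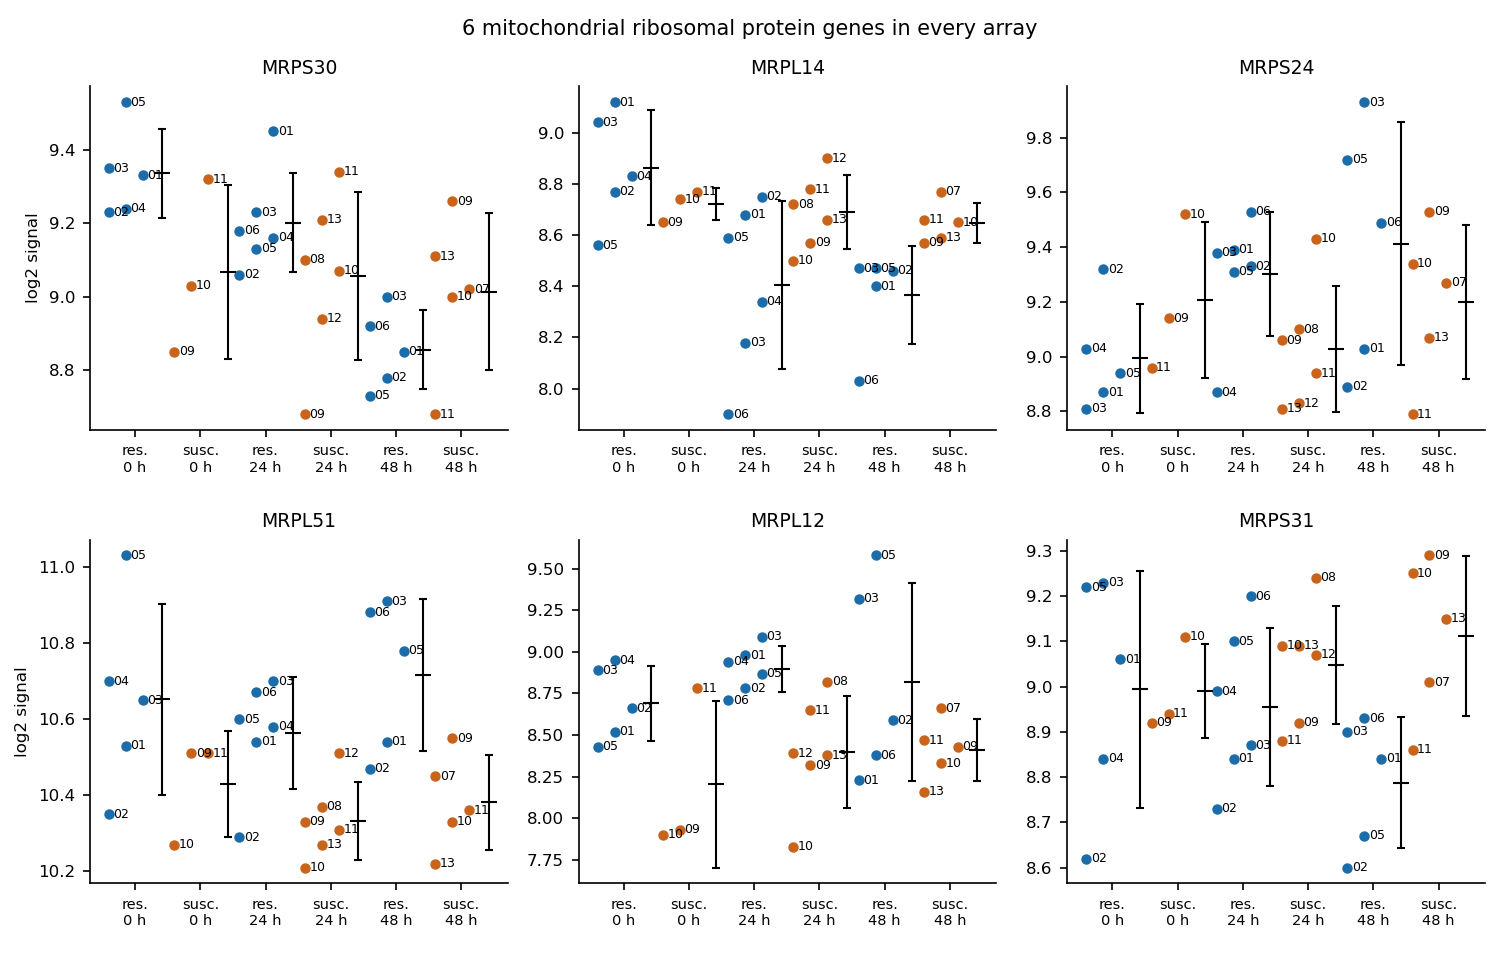
Log2 signal of MRPS30, MRPL14, MRPS24, MRPL51, MRPL12 and MRPS31 in every array, by phenotype and time. Points are arrays labelled with the animal number (blue resistant, orange susceptible), and the bars give the mean ± SD of each group. In resistant skin all 5 MRPS30 signals at 48 h (8.73 to 9.0) lie below the 5 at 0 h (9.23 to 9.53).

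In susceptible skin no member had an unadjusted p under 0.05 between any pair of times with all arrays used, and 2 had one for 48 h against 0 h without the 0 h array of animal 10. The background was 2.3% of all probe sets for 24 h against 0 h, 0.949% for 48 h against 0 h and 1.88% for 48 h against 24 h. The median differences of the members were −0.007, 0.025 and 0.044, beside −0.012, −0.008 and 0.009 over all probe sets. From 24 h to 48 h 50 of 67 members were higher, with values between −0.19 and 0.26. Without the 24 h array of animal 09 this count was 38. The smallest p was that of MRPS15, a conserved small-subunit protein, at 0.29 ± 0.15 for 48 h against 0 h (adjusted p = 1.0, limma). Its 0 h signals were 9.76, 9.88 and 9.90, and its 48 h signals of 10.20, 10.28, 10.12, 9.92 and 10.14 were all higher. MRPL10, which anchors MRPL12 in the stalk, was 0.30 ± 0.16 (adjusted p = 1.0). For 24 h against 0 h the smallest p were those of MRPS23 (0.16 ± 0.11), MRPS15 (0.18 ± 0.14), MRPL46 (−0.42 ± 0.27) and MRPL24 (−0.26 ± 0.17), and among the members lower at 48 h than at 0 h those of MRPL30 (−0.17 ± 0.16) and MRPL38 (−0.18 ± 0.16). From 24 h to 48 h they were those of MRPL2 (0.18 ± 0.13), MRPL21 (0.17 ± 0.14), MRPS5 (−0.19 ± 0.15) and MRPL32 (−0.12 ± 0.16). None of these values was larger than about 2 SE. Only 3 susceptible arrays were used at 0 h, and the medians against 0 h turned when single arrays were left out. At 24 h the median was 0.018, 0.005 and 0.038 without the 0 h arrays of animals 10 and 11 or the 24 h array of animal 09. At 48 h it was −0.018 and −0.002 without the 0 h or the 48 h array of animal 09.

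The responses of the phenotypes were also compared directly. For 24 h against 0 h, resistant minus susceptible, the members' median was 0.011 (all probe sets 0.013), and 1 member (1.49%, against 1.85% of all probe sets) had an unadjusted p under 0.05. That was MRPL14, at −0.43 ± 0.20 (adjusted p = 1.0, limma). For 48 h against 0 h the median was −0.021 (all probe sets −0.022), and again 1 member (1.49%, against 2.93%), MRPS30, had such a p. When single arrays were left out these counts lay between 0 and 3. In the 24 h response MRPL2, MRPS24 and MRPS6 stood at 0.38 ± 0.19, 0.49 ± 0.26 and −0.32 ± 0.21. In the 48 h response MRPL30, MRPS24 and MRPL14 stood at 0.37 ± 0.21, 0.43 ± 0.27 and −0.43 ± 0.21. The direction of both medians turned with single arrays, to −0.027 without the susceptible 0 h array of animal 11 in the 24 h response and to 0.067 without the resistant 48 h array of animal 01 in the 48 h response. In the 24 h response it was also −0.016 and −0.007 without the resistant 0 h arrays numbered 01 and 04, −0.006 without the susceptible 0 h array of animal 10, −0.020 without the resistant 24 h array of animal 03 and −0.015 without the susceptible 24 h array of animal 09. In the 48 h response it was also 0.025 without the susceptible 0 h array of animal 09 and 0.012 without the resistant 48 h array of animal 02.

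Beside MRPL12, MRPS30 and MRPS36, described above, other members of known role were named whatever their values. MRPL11, which with MRPL10 and MRPL12 forms the site where translation factors dock, differed between phenotypes by 0.05 ± 0.27 at 0 h, 0.23 ± 0.21 at 24 h and 0.28 ± 0.23 at 48 h. MRPL58, a peptidyl-tRNA hydrolase built into the large subunit that frees stalled chains, gave 0.08 ± 0.16, 0.21 ± 0.13 and 0.11 ± 0.14. At the exit of the peptide tunnel, MRPL45, which holds the ribosome to the inner membrane, gave −0.09 ± 0.15, −0.06 ± 0.12 and 0.04 ± 0.13, and MRPL23 gave 0.13 ± 0.19, 0.14 ± 0.15 and 0.13 ± 0.16. MRPS18A, which lies in the large subunit, gave 0.06 ± 0.25, 0.10 ± 0.20 and 0.10 ± 0.22, and its paralog MRPS18B of the small subunit 0.18 ± 0.15, 0.19 ± 0.12 and −0.02 ± 0.13. None of these genes had an unadjusted p under 0.05 in a comparison of phenotypes.

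The members' differences were also read by subunit and origin. At 48 h against 0 h in resistant skin the medians were 0.057 for 27 conserved large-subunit members, 0.026 for 18 mitochondria-specific ones, −0.072 for 12 conserved small-subunit members and 0.003 for 9 mitochondria-specific ones. Each of these classes held values on both sides of 0. Between phenotypes at 48 h the same classes had medians of 0.027, 0.076, −0.048 and −0.017. MRPS18A was counted here as a conserved large-subunit member and its paralog MRPS18B as a mitochondria-specific small-subunit member. The split by origin is therefore approximate.

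A few members were called between animals of the same phenotype. Their share lay above, below or near that of all probe sets, depending on how the 3 uncertain arrays were treated. A test of the animal number within phenotype, added after the data were seen, called 2 of 67 members (2.99%) at an adjusted p under 0.05 (limma), against 1.62% of all probe sets. With the 3 uncertain numbers moved it called 3 members (4.48%), against 8.44% of all probe sets, and without those 3 arrays 3 members, against 4.39%. The moved numbers were chosen by the likeness of these same arrays, so a smaller p with them is not independent support. The median share of variance that lay between animals was 49.3% over the members and 47.6% over all probe sets that passed the filter (52.1% and 50.1% with the numbers moved). Such a share also holds the difference between the phenotypes, so the shares of single genes below are to be read beside these medians.

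MRPL9, a conserved large-subunit protein, had the clearest difference between animals. Its signal was 12.17 and 12.27 in the arrays of animal 06 and from 11.57 to 12.10 in those of animal 09. The single arrays of animals 07 and 08 read 10.31 and 10.34. The resistant 0 h array numbered 05, which lay closest to animal 06 over probe sets other than the members, read 11.95, whereas the later arrays of animal 05 read 10.93 and 11.47. Between animals lay 82.0% of the variance (87.6% with the numbers moved), and the adjusted p was 0.0105 (0.000495 with the numbers moved, limma). Between phenotypes MRPL9 differed by −0.14 ± 0.35, −0.08 ± 0.28 and 0.13 ± 0.31 at the 3 times.

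MRPL19, a protein at the interface of the subunits, was lowest in animal 01, with 8.25, 8.70 and 8.34 at 0 h, 24 h and 48 h. Animal 09 followed with 8.97, 8.66 and 8.62, and the highest signal was 9.80 in animal 10. Its adjusted p was 0.0193 (0.00556 with the numbers moved, limma), and 84.1% of its variance lay between animals (83.8% with the numbers moved). Without the 0 h or the 48 h array of animal 01 the adjusted p of MRPL19 was 0.0696 or 0.059, which ends its call. MRPL11 was lowest in animal 11, with 9.82, 9.60 and 9.57, next to the single array of animal 12 with 9.65, and reached 11.13 in animal 03. Its adjusted p was 0.0561 with the labelled numbers and 0.00225 with the numbers moved. Animals 01 and 09 held the lowest MRPL19 signals at each time, and animal 11 the lowest MRPL11 signal.

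MRPL51, MRPL37 and MRPL12 had 81.7%, 69.7% and 68.0% of their variance between animals, with adjusted p of 0.288, 0.233 and 0.448 in the same test. With the 3 numbers moved the shares were 85.9%, 77.6% and 77.2%. The adjusted p of MRPL51 and MRPL12 were then 0.0927 and 0.184, and that of MRPL37 lay just above the threshold of 0.05. For every gene, MRPL51 and MRPL12 among them, this share includes the difference between the phenotypes, which the test takes out. MRPS2, a conserved small-subunit protein with a large SD, depended most visibly on the numbering. Its 0 h array numbered 05 read 7.74 and the later arrays of animal 06 read 7.82 and 8.05, while those of animal 05 read 9.33 and 9.16 and the 0 h array numbered 04 read 9.0. The share between animals was 33.5% as labelled and 66.3% with the numbers moved.

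**Figure D5:**
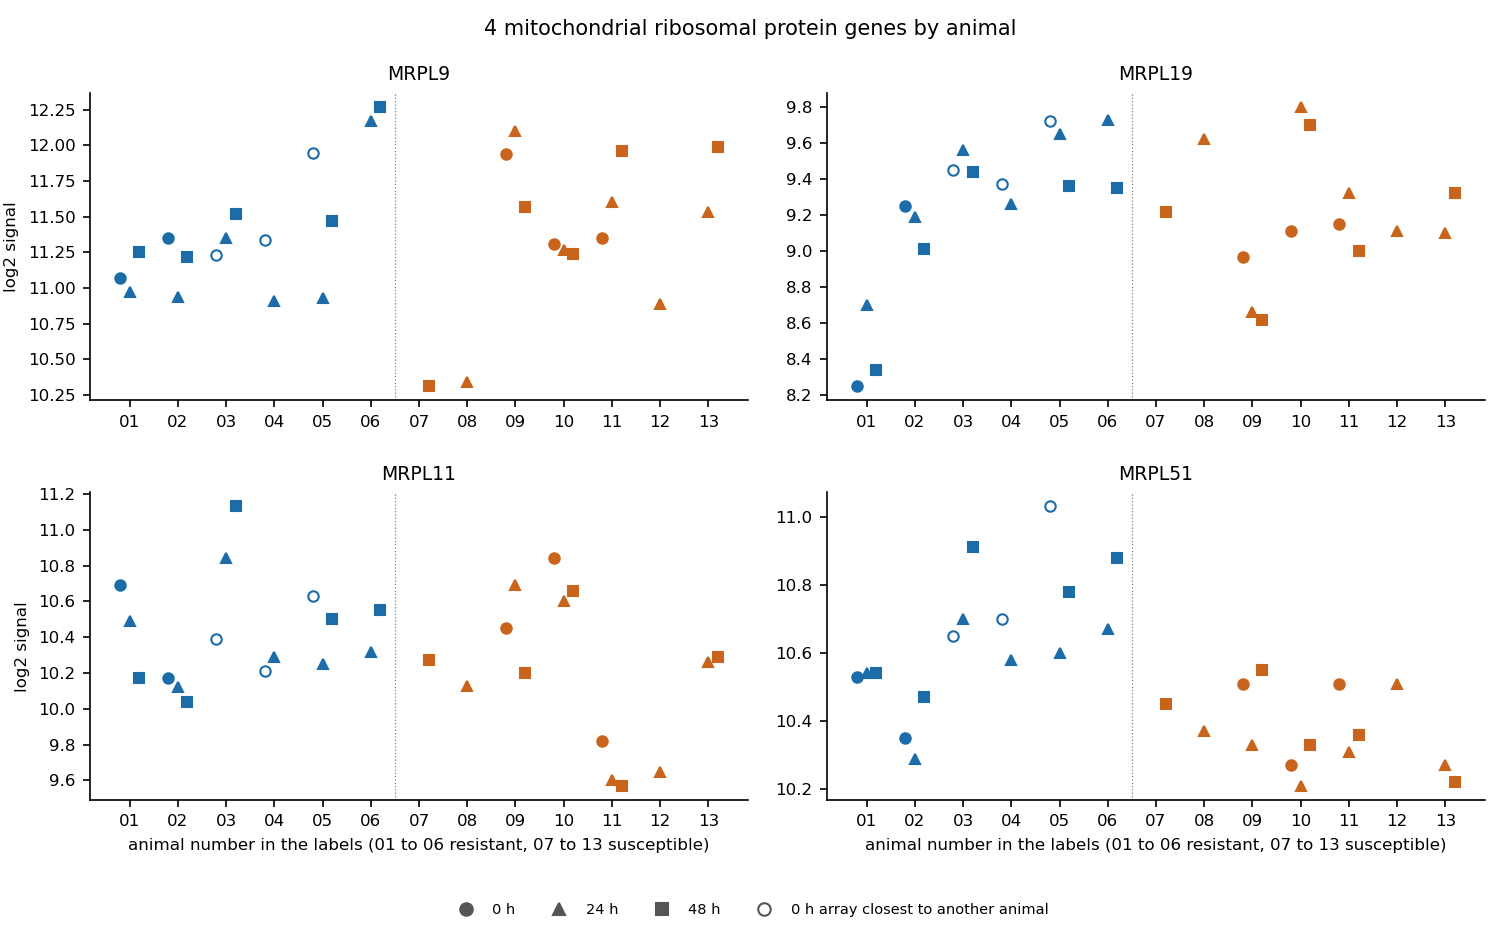
Log2 signal of MRPL9, MRPL19, MRPL11 and MRPL51 by animal number (01 to 06 resistant in blue, 07 to 13 susceptible in orange), with the time as the symbol. Open circles are the 3 resistant 0 h arrays that lay closest to another animal. MRPL9 runs from 10.31 (animal 07) to 12.27 (animal 06), and the 3 arrays of animal 01 are the lowest of the resistant animals for MRPL19.

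How far the members varied together was described by a principal component analysis. The first principal component of the 67 members held 31.1% of their variance, and 34.2% with the group means removed. The same share was 46.7% for the 73 respiratory chain genes and 63.9% for the 64 cytosolic ribosomal proteins (49.1% and 63.4% with group means removed). These shares are descriptions of the same 30 arrays, and the lists differ in how strongly their probe sets are expressed.

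For 9 members a second probe set passed the filter, and it was used to see how far a gene's direction depends on the probe set. Between phenotypes at 48 h the sign of another probe set was opposite in 5 of 9 genes, and for 48 h against 0 h in resistant skin in 3 of 9. The genes were MRPL20, MRPL23, MRPL39, MRPL43, MRPL57 and MRPS35. Some of these signs belong to differences near 0. Between phenotypes at 48 h MRPL20 read −0.01 ± 0.13 and 0.02 ± 0.18, and the opposite probe set of MRPL23 −0.00 ± 0.15. For 48 h against 0 h MRPS35 read 0.00 ± 0.14 and 0.09 ± 0.25. MRPL43 read 0.25 ± 0.14 between phenotypes at 48 h by its brighter probe set and −0.30 ± 0.31 by the other, and MRPL39 −0.23 ± 0.14 and 0.13 ± 0.22. None of these differences had an unadjusted p under 0.05, and the direction of such a member is not settled by either probe set.

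Genes that serve the mitochondrial ribosome were read the same way, and 0 of them passed the test (limma) between phenotypes at 48 h or between 48 h and 0 h in resistant skin. Of 5 mitoribosomal proteins known under other names, 2 were higher in resistant skin at 48 h and PTCD3, a small-subunit protein with helical repeats, was −0.33 ± 0.13 (adjusted p = 0.398, limma). Of 10 translation factors 4 were higher, and OXA1L, which inserts new chains into the inner membrane, was −0.21 ± 0.10 (adjusted p = 0.482). The elongation factor GFM1 was 0.18 ± 0.13 and GADD45GIP1, a large-subunit protein, 0.36 ± 0.22. Of 15 aminoacyl-tRNA synthetases, which load the mitochondrial tRNAs, 3 were higher and 12 lower (7 higher without the resistant array of animal 01), led by CARS2 (−0.38 ± 0.15, adjusted p = 0.415) and NARS2 (−0.33 ± 0.14, adjusted p = 0.42).

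Of 14 genes for assembly of the mitochondrial ribosome and modification of its RNA, 2 were higher and 12 lower in resistant skin at 48 h, with a median of −0.102 (0 to 6 higher when each resistant 48 h array was left out, with 6 and a median of −0.017 without animal 01). DHX30, an RNA helicase of this pathway, was −0.34 ± 0.12 (adjusted p = 0.358, limma) and MTERF3, of the family of mitochondrial transcription termination factors, −0.34 ± 0.14 (adjusted p = 0.421). Of 9 genes of mitochondrial transcription and RNA handling 4 were higher, with MTPAP, the mitochondrial poly(A) polymerase, at −0.23 ± 0.10 (adjusted p = 0.459) and TFB2M at −0.26 ± 0.15. Of 5 regulators of mitochondrial biogenesis 1 was higher, and NRF1 and MYC were −0.39 ± 0.25 and −0.32 ± 0.21. These medians stand beside −0.042 over all probe sets at that time.

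The respiratory chain, which takes up the products of the mitochondrial ribosome, had a median above that of these lists at 48 h. Of 73 genes of the respiratory chain and ATP synthase 55 were higher in resistant skin, against 42.9% of all probe sets. Their median was 0.110. An unadjusted p under 0.05 was found for 11 (15.1%), 11 of them higher, against the 10.1% of all probe sets. Without the resistant array of animal 01 the list had 68 higher (median 0.222) and 22 at such a p. Without that of animal 03 or 05 it had 42 or 44 higher (median 0.028 or 0.045) and 3 at such a p. The shares of all probe sets above come from the fit with all arrays, so the counts without single arrays stand without their own background. NDUFB11, a subunit of complex I, was 0.41 ± 0.14 higher (adjusted p = 0.335, limma), and ATP5PO of ATP synthase 0.37 ± 0.13 (adjusted p = 0.361). Of 64 cytosolic ribosomal proteins 52 were higher (median 0.054), among them RPS27L (0.22 ± 0.11) and RPSA (0.14 ± 0.08), and 0 had an unadjusted p under 0.05. Both lists deviated upward in the resistant 48 h arrays of animals 03 and 05, as the members did.

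Against 0 h in resistant skin at 48 h, 6 of 10 translation factors, 8 of 15 aminoacyl-tRNA synthetases and 6 of 14 assembly genes were higher. Their medians were 0.042, 0.036 and −0.018, and each changed sign without some single 48 h array. Of the transcription genes 3 of 9 were higher, of the biogenesis regulators 2 of 5 and of the mitoribosomal proteins under other names 2 of 5. The genes that follow had the smallest p of their lists. TSFM, the partner of the elongation factor TUFM, was −0.38 ± 0.17 (adjusted p = 0.414, limma) and TUFM −0.30 ± 0.19. MTERF3 was −0.46 ± 0.14 (adjusted p = 0.28), TFB2M, a factor of mitochondrial transcription, −0.35 ± 0.15 (adjusted p = 0.39), and MYC, a regulator of ribosome and mitochondrial genes, −0.59 ± 0.21 (adjusted p = 0.33). WARS2, a tryptophanyl-tRNA synthetase, was 0.39 ± 0.13 higher (adjusted p = 0.308). VARS2 and YBEY, an RNA endonuclease, were 0.28 ± 0.15 and 0.51 ± 0.25, while ELAC2, which trims mitochondrial tRNAs, AURKAIP1 and YY1 were −0.44 ± 0.25, −0.18 ± 0.16 and −0.16 ± 0.11. NDUFB11 and NDUFB6 of complex I were 0.39 ± 0.14 and 0.31 ± 0.12, and the cytosolic ribosomal proteins RPL17 and RPL14 0.29 ± 0.09 and 0.22 ± 0.09. Of the cytosolic ribosomal proteins 63 of 64 were higher, against 47.8% of all probe sets, with a median of 0.135, whereas the members' median was 0.010. Of these proteins 8 (12.5%, against 11% of all probe sets) had an unadjusted p under 0.05. This list deviated by −0.11, 0.09, 0.22, 0.25 and 0.00 in the 48 h arrays of animals 01, 02, 03, 05 and 06. How far the 63 of 64 rests on single arrays is not shown here.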

How the data were processed

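The authors deposited log2 signals, 1 array per sample, made with MAS5 per the submitters' processing notes, which name no version. On the linear scale each array was found to have a 2% trimmed mean of 500. These signals were used as deposited. After 112 controls of 24128 probe sets were dropped, a probe set was kept if it reached the array median in 3 or more arrays, which left 13809 of 24016. The number of arrays limits the precision, and detection calls were not used here.

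The 30 arrays entered 1 linear model with a mean for each of the 6 groups (limma 3.58.1, R 4.3.3, eBayes with an intensity trend). Tests were two-sided, with Benjamini-Hochberg adjustment over the 13809 probe sets and a threshold of 0.05. The animal test was an F-test of the animal number within phenotype in a model that also held the groups. Both fits were tested on simulated data. Replicates are animals as numbered in the labels, which also pair the times; 3 of the 0 h numbers are uncertain. Tried as alternatives were arrays quantile-normalized or centred on their medians, all probe sets kept, an offset of 16, the animal as a random block or fixed term (also with 3 numbers moved), only the arrays compared, no trend, array weights, the mean of all probe sets of a gene, and leaving out each array. Those of the animal test and of the related lists were added after the data were seen.

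The members and gene lists were chosen with earlier results of these data known, and no list was tested as a set. Named were members past the threshold and, in each comparison, the 2 with the smallest p in each direction. Also named were the 6 with most variance between animals, the 5 with the largest and the 5 with the smallest SD, and those with probe sets of opposite sign at 48 h. A few members of known role, and 2 genes of each related list in 2 comparisons, were added whatever their values. MRPL4 and MRPL44 were chosen after their values were seen. All 67 members matched a RefSeq gene (assembly ARS-UCD2.0) by gene ID. No build is stated for the files in the sources used here, and no coordinates or sequences are printed. Summaries and figures used Python 3.11.15 with matplotlib 3.10.9.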

Additional observations from a re-analysis of the deposited data

Results flagged for a closer look

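For 42 named members the highest or lowest array of a group was compared with its nearest neighbour (Dixon's criterion), in 210 groups of values and 5 groups of the arrays' mean deviations, and 13 member values stood apart. By chance about 1 in 20 groups is expected to. MRPL9 did so in animal 06 at both times: 12.17 in resistant skin at 24 h (the others 10.91 to 11.35) and 12.27 at 48 h (11.22 to 11.52). MRPL14 was 8.03 in the resistant 48 h array of animal 06, while the others lay between 8.40 and 8.47. MRPL27 was 11.07 in the resistant 0 h array numbered 03 (others 11.26 to 11.32) and 11.43 in the resistant 24 h array of animal 03 (11.10 to 11.22). MRPL38 was 8.82 in the resistant 0 h array numbered 04 (8.59 to 8.66) and 8.19 in the susceptible 24 h array of animal 11 (8.42 to 8.52). MRPL49 was 10.01 in the resistant 0 h array of animal 02 (9.56 to 9.67). MRPS24 was 8.87 in the resistant 24 h array of animal 04 (9.31 to 9.53), and MRPL37 was 8.57 in the susceptible 24 h array of animal 12 (9.26 to 9.42). MRPL39 was 9.30 in the resistant 48 h array of animal 06 (9.59 to 9.70) and 9.37 in the susceptible 48 h array of animal 11 (9.85 to 9.97), and MRPL20 was 11.06 in the latter array (11.42 to 11.54).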

How the results depend on the processing

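Under every alternative run, 0 of 67 members were called in the 11 comparisons, and the 44 named member differences kept their direction and their side of the threshold. The smallest adjusted p of a member in any setting was 0.0693, for resistant skin at 48 h against 0 h with a replicate block (animal as a fixed term, 3 numbers moved). With the replicate block as a fixed term the members' median there was −0.007, and −0.061 with the numbers moved, against 0.010 without it. With the replicate block as a random term (correlation within animal 0.143) the median between phenotypes at 48 h was 0.038 against 0.042. The test of animals called 1 to 3 members when single arrays were left out, with 1, MRPL9, without the resistant 0 h array of animal 01. The direction of the members' median also turned when the resistant 24 h array of animal 03 (0.012), or the 48 h array of animal 02 (0.017) or 06 (0.004), was left out of 48 h against 24 h in resistant skin. The number of arrays, 3 in the smallest group, limits what can be called.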
